A study of Mus musculus with 6 samples.

Results

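Expression of the genes of cholesterol synthesis and transport was examined in the brains of PLDP mice and control mice. The set holds 32 genes, chosen by symbol for their role in sterol synthesis, its regulation by SREBP2, cholesterol efflux, lipoprotein uptake and turnover, out of 60354 features in each count file. Of the 32 genes, 29 passed the filter on low counts and were tested, Fdps and Tm7sf2 did not pass it, and Mvd was not analysed here. All mice were C57BL/6NCrSlc males that were 16 weeks old when the diets began. The 3 PLDP mice (mice 17, 22 and 26) received PLDP, a protease-treated porcine liver product, as 20% of a modified AIN-93M diet for 16 weeks. The 3 control mice (mice 2, 5 and 10) received a modified AIN-93M diet of matched calories without PLDP for the same time. Every mouse then went through the same series of behavioral tests without the PLDP diet, and whole-brain RNA was taken on day 18. The values thus describe brains some days after the diet had ended, and all regions of the brain are pooled in each library. PLDP mouse 17 stood apart from the other PLDP mice, with a chi-square per degree of freedom between counts of 5.4 and 5.07 against mice 22 and 26, where the other pairs on the same diet had 2.36 to 3.13.

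The brain makes nearly all of its own cholesterol, since lipoprotein cholesterol hardly crosses the blood-brain barrier. Acetyl-CoA units are built into mevalonate and isoprenoids, isoprenoids into squalene, and squalene into lanosterol and finally cholesterol. The transcription factor SREBP2 turns on most of the enzymes when membrane sterol is low, while INSIG proteins hold its escort SCAP in the endoplasmic reticulum when sterol is high. Oligodendrocytes use cholesterol for myelin, astrocytes export it on apolipoprotein E particles through ABC transporters, and neurons dispose of it by CYP46A1, which makes a hydroxylated sterol that leaves the brain.

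The promoters of 3 of the genes that were lower in the PLDP mice are shown to set beside their values the short motifs known for SREBP2 and its partner NF-Y. By exact match to the strings given below, Hmgcs1 holds both motifs, while Lss and Insig1 hold the NF-Y box only. Sites that differ from these strings or lie outside the 250 bases were not searched. The sequences are the 250 bases before the RefSeq start in GRCm38.p6, read 5′ to 3′ along the gene. Capitals mark matches to TCACNCCAC, the core of the sterol regulatory element, and to CCAAT, the NF-Y box, which appears as its reverse complement where it lies on the other strand. The windows are chr13:119690101-119690350 on the plus strand for Hmgcs1, chr10:76531355-76531604 on the plus strand for Lss and chr5:28071162-28071411 on the plus strand for Insig1.

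Hmgcs1: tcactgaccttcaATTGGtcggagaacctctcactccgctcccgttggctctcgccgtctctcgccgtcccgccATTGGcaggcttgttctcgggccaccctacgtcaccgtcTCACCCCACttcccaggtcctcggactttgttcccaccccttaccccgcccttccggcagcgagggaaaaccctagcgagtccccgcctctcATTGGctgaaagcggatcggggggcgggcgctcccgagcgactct

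Lss: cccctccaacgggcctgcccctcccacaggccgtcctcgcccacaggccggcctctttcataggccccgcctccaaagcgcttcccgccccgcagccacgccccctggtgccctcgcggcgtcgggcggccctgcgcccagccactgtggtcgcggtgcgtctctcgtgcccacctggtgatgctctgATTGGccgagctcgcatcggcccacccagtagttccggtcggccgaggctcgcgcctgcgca

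Insig1: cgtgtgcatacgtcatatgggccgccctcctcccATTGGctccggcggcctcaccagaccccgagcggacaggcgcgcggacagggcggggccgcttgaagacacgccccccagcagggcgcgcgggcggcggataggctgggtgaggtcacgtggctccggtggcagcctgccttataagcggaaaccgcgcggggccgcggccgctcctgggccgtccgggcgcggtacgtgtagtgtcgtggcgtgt

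The match to TCACNCCAC in Hmgcs1 lies on the gene's own strand from 137 to 129 bases before the start. It is the only match among the 25 member genes that the promoter table holds. On either strand, 1.22% of all 27025 genes in the table hold this motif, and 1.05% of its 32851 promoters. A CCAAT match on either strand was present before at least 1 start of 21 of the 25 member genes, against 37.5% of all 27025 genes in the table. All 15 of the enzymes with a promoter held one, and so did 6 of the 10 other members. A GC box, GGGCGG on either strand, was present in 22 of the 25 member genes and in 35.4% of all genes. None of the 3 motifs contains another, and a match describes the sequence only. The 6 genes called lower for which the table has a promoter (Hmgcs1, Idi1, Lss, Msmo1, Sc5d and Insig1) all held a CCAAT match. No promoter was at hand for Fdps, Fdft1, Sqle, Abcg1, Abcg4, Npc1 and Stard4.

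Sterol synthesis enzymes were mostly lower in the PLDP mice, by small amounts. Of the 15 enzymes tested, 13 had a lower mean in the PLDP mice, and 5 (Hmgcs1, Idi1, Lss, Msmo1 and Sc5d) fell at an unadjusted p under 0.05 in edgeR's quasi-likelihood test, while 0 rose. The median log2 fold change of the 15 enzymes was -0.12, against -0.00062 over all 18580 features tested. Over all features, 8.6% were called at the unadjusted threshold, 4.91% higher and 3.69% lower. Among all 29 members tested, 10 were called, 2 higher and 8 lower, with a median log2 fold change of -0.065. None of the 29 passed an adjusted p of 0.05 in edgeR's quasi-likelihood test, its exact test, DESeq2 or limma voom, the smallest adjusted p being 0.334 in the quasi-likelihood test, where 0.0323% of all features passed. At an unadjusted p under 0.05 these other tools called 8, 7 and 8 members, and 8.32%, 4.98% and 8.67% of all features. With no filter on low counts, the quasi-likelihood test called 8 enzymes lower and 6.54% of 36099 features in either direction. The 8 include Fdps, which is not among the 15 enzymes and has 1 to 8 counts per mouse. In that fit 3 members (Lss, Stard4 and Insig1) passed the adjusted threshold, with adjusted p from 0.0181 to 0.0378. The number of enzymes called depended on which mice were included. Without control mouse 5, 0 enzymes were called lower (edgeR's quasi-likelihood test), and the median log2 fold change of the 15 was -0.040. Of the 15, 11 had a negative log2 fold change, among them Ebp (-0.0385), which was not lower with all mice. In that fit 2 of the 29 members were called, Npc1 lower and Abcg1 higher, near the share of 6.49% over all features. Without PLDP mouse 26, 1 enzyme and 2 members were called (7.24% of all features), and without control mouse 2, 2 enzymes and 6 members (5.95%). Without control mouse 10, 8 enzymes and 10 members were called, all lower (8.47% of all features in either direction). Without PLDP mouse 17, 5 enzymes and 9 members were called (12.5%), and without PLDP mouse 22, 4 enzymes and 8 members (8.18%). In whole-brain RNA, fewer cells of a type and less RNA per cell cannot be told apart.

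**Figure D1:**
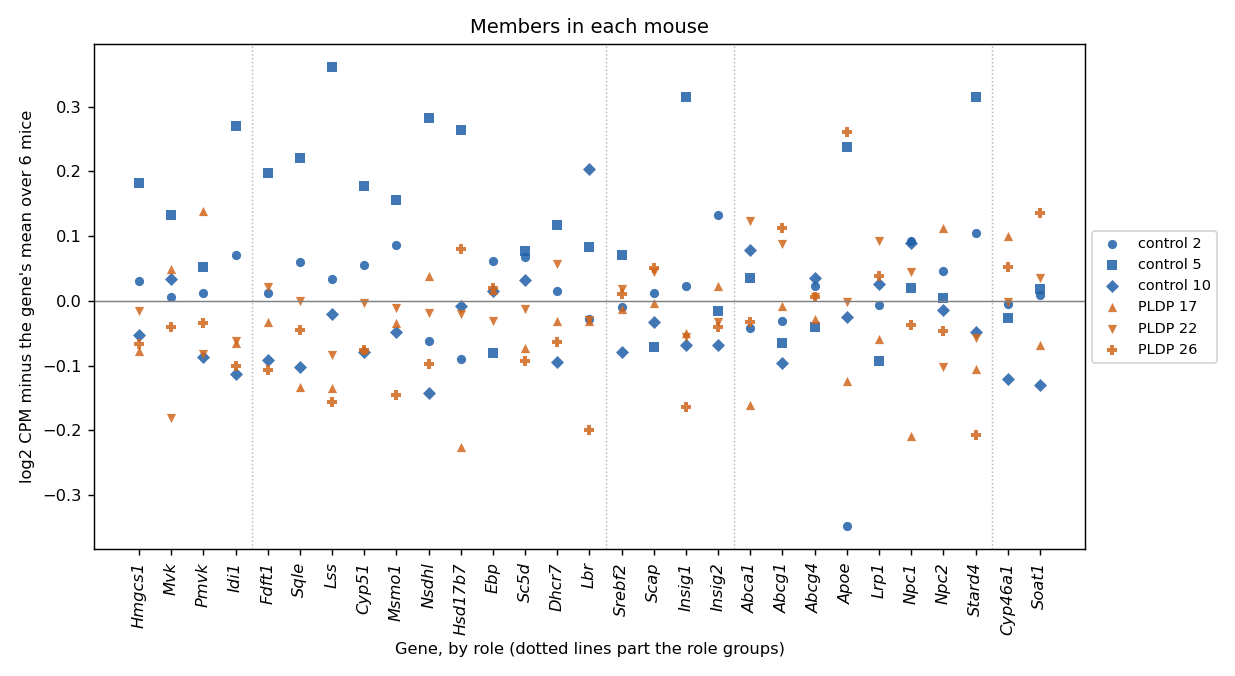
Log2 CPM of each of the 29 tested members in each mouse, minus the gene's mean over the 6 mice. Blue symbols are control mice, orange symbols PLDP mice, and dotted lines part the role groups. Control mouse 5 (squares) is the highest mouse for 12 of the 15 enzymes and stands apart for Insig1 and Stard4 as well, while control mouse 10 (diamonds) lies at or below the highest PLDP mouse for 12 of the 15.

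In the mevalonate branch, Hmgcs1, which condenses acetyl-CoA units into the precursor of mevalonate, had 229, 254 and 216 CPM (counts relative to the library size after TMM scaling) in control mice 2, 5 and 10. In PLDP mice 17, 22 and 26 it had 212, 221 and 214 CPM. The diets overlapped, since control mouse 10 lay below PLDP mouse 22. Its log2 fold change was -0.11 (SE 0.051, with an adjusted p of 0.567 by quasi-likelihood test in edgeR). The call was lost without control mouse 5, where the value was -0.043, and without control mouse 2 or PLDP mouse 17 or 26. Hmgcs1 was also not called with upper-quartile scaling, DESeq2, limma voom or the exact test of edgeR, with unadjusted p from 0.0504 to 0.0594. Idi1, the isomerase that supplies the reactive isoprenoid unit, had 65.3, 74.9 and 57.5 CPM in control mice 2, 5 and 10, against 59.4, 59.5 and 57.9 CPM in PLDP mice 17, 22 and 26. The PLDP mice were close together, and control mouse 10 was below all of them. Idi1 differed by -0.16 on the log2 scale (SE 0.072, adjusted p = 0.548), and by -0.058 without control mouse 5. The call was lost without this mouse, control mouse 2 or PLDP mouse 22 or 26, and in limma voom (unadjusted p = 0.0513). The kinases Mvk and Pmvk did not pass the threshold, with log2 fold changes of -0.12 and 0.017. Fdps, which makes farnesyl diphosphate, had 5, 8 and 7 counts in the control mice and 1 count in each PLDP mouse, too few to be tested.

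The enzymes from squalene to cholesterol held the largest difference among the enzymes, that of Lss, the cyclase that makes lanosterol. Lss had 38.4, 48.2 and 37.0 CPM in control mice 2, 5 and 10, against 34.1, 35.4 and 33.6 CPM in PLDP mice 17, 22 and 26. Every PLDP mouse was below every control mouse, and control mouse 5 stood well above the other 5 mice. The log2 fold change of Lss was -0.26 (SE 0.082, adjusted p = 0.347), a change of -16.5%, and -0.13 without control mouse 5, where the call was lost. Lss (ENSMUSG00000033105) lies on chromosome 10 from 76531588 to 76557138 in GRCm38. Like Hmgcs1, Idi1 and Npc1, it shares exonic bases with a gene on the other strand, 381 bases for Lss, and whether the counting used strand is not given in the sources used here.

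Sc5d, a desaturase near the end of the pathway, had 77.4, 77.8 and 75.5 CPM in control mice 2, 5 and 10, against 70.2, 73.1 and 69.2 CPM in PLDP mice 17, 22 and 26. Here the control mice lay close together, control mouse 5 did not stand apart, and the diets did not overlap. Sc5d had a log2 fold change of -0.12 (SE 0.047, adjusted p = 0.484). Without control mouse 5 it was -0.11, with an unadjusted p of 0.0668 in edgeR, and the call was also lost without control mouse 2 or PLDP mouse 26. Msmo1, which begins the removal of methyl groups from lanosterol's product, had 80.6, 84.6 and 73.4 CPM in control mice 2, 5 and 10, against 74.2, 75.3 and 68.6 CPM in PLDP mice 17, 22 and 26. Control mouse 10 lay within the range of the PLDP mice. The log2 fold change of Msmo1 was -0.13 (SE 0.057, adjusted p = 0.541), and -0.082 without control mouse 5. Without this mouse, control mouse 2 or PLDP mouse 26 the call was lost.

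Lbr, a nuclear membrane protein that is also a sterol reductase, separated the diets without passing the threshold. It had 14.8, 16.0 and 17.4 CPM in control mice 2, 5 and 10, against 14.8, 14.8 and 13.1 CPM in PLDP mice 17, 22 and 26. The margin between control mouse 2 and PLDP mouse 22 was below the rounding of these values. Its control value was highest in mouse 10, not in mouse 5, and its log2 fold change was -0.17 with all mice (SE 0.088, adjusted p = 0.616) and without control mouse 5 (unadjusted p = 0.107 in edgeR's test). The squalene synthase gene Fdft1 had 89.6, 101.9 and 83.4 CPM in control mice 2, 5 and 10, against 86.9, 90.3 and 82.5 CPM in PLDP mice 17, 22 and 26. Its log2 fold change went from -0.082 to 0.0016 when control mouse 5 was left out. Sqle, the squalene epoxidase gene, and Cyp51, the lanosterol demethylase gene, had log2 fold changes of -0.13 and -0.11 with all mice, and -0.040 each without control mouse 5. The 4 remaining tested genes of this branch were Nsdhl, Hsd17b7, Ebp and Dhcr7, with log2 fold changes of -0.065, -0.12, 0.0017 and -0.026, and of 0.078, -0.00475, -0.0385 and 0.028 without control mouse 5. Tm7sf2, another sterol reductase, had 0 counts in every mouse, which at 3 counts allows up to 0.125 to 0.16 CPM.

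Across mice, the enzymes were highest in control mouse 5. The median deviation of the 15 enzymes from their means was 0.18 on the log2 scale in control mouse 5 and 0.031 in control mouse 2. It was -0.053 in control mouse 10, and -0.035, -0.019 and -0.075 in PLDP mice 17, 22 and 26. In control mouse 5, 14 of the 15 enzymes were above their mean. Control mouse 10 had only 4 enzymes above their mean, as many as PLDP mouse 17, and lay below the PLDP mean for 8 of the 15. The spread in CPM was larger among the control mice than among the PLDP mice for 12 of the 15 enzymes.

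**Figure D2:**
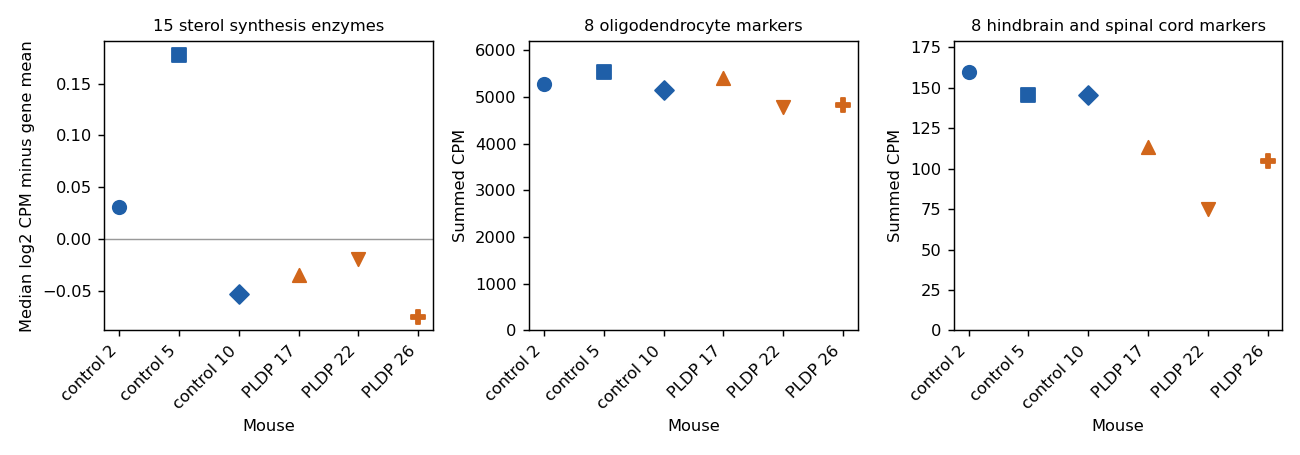
For each mouse, the median log2 deviation of the 15 tested enzymes from their means (left), the summed CPM of 8 oligodendrocyte markers (middle) and of 8 hindbrain and spinal cord markers (right), with control mice in blue and PLDP mice in orange. Control mouse 5 is highest for the enzymes and for the oligodendrocyte markers, where the myelin gene Mbp gives 3564 of its 5523 CPM. PLDP mouse 17, at 5406 CPM, is above control mice 2 and 10 for the oligodendrocyte markers, with an enzyme deviation of -0.035. The hindbrain markers separate the diets, with 145.5 to 159.6 CPM in control mice and 75.3 to 113.4 CPM in PLDP mice.

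Among the regulators of SREBP2, Insig1 fell and the others did not pass the threshold. Insig1, itself a known target of SREBP2, had 99.6, 121.9 and 93.4 CPM in control mice 2, 5 and 10, against 94.7, 94.3 and 87.4 CPM in PLDP mice 17, 22 and 26. Control mouse 5 was again the highest, and control mouse 10 lay inside the PLDP range. The log2 fold change of Insig1 was -0.19 (SE 0.074, adjusted p = 0.471), and -0.067 without control mouse 5. The call was lost without this mouse or PLDP mouse 26, and in DESeq2 (unadjusted p = 0.125). The gene of the factor itself, Srebf2, had 216, 228 and 206 CPM in control mice 2, 5 and 10, against 215, 220 and 219 CPM in PLDP mice 17, 22 and 26. All PLDP values lay within the control range, and the log2 fold change was 0.0098 (SE 0.043). Scap, the escort gene, had 93.0, 87.7 and 90.1 CPM in control mice 2, 5 and 10, against 92.0, 95.1 and 95.5 CPM in PLDP mice 17, 22 and 26, a log2 fold change of 0.061 (SE 0.045, adjusted p = 0.751). Insig2, the second INSIG gene, had a log2 fold change of -0.034.

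The transport genes went in both directions. Stard4, which carries sterol between membranes in the cytosol and is a known SREBP2 target, had the smallest p of all members. It had 41.6, 48.1 and 37.4 CPM in control mice 2, 5 and 10, against 35.9, 37.1 and 33.5 CPM in PLDP mice 17, 22 and 26. The diets did not overlap, but control mouse 10 and PLDP mouse 22 lay side by side. The log2 fold change of Stard4 was -0.25 (SE 0.078, adjusted p = 0.334), a change of -16.1%, and -0.15 without control mouse 5 (unadjusted p = 0.0561 in edgeR's test), where the call was lost. Stard4 (ENSMUSG00000024378) shares no exonic bases with another annotated gene.

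Npc1, the membrane protein that releases cholesterol from lysosomes, had 79.5, 75.6 and 79.4 CPM in control mice 2, 5 and 10, against 64.5, 76.9 and 72.7 CPM in PLDP mice 17, 22 and 26. PLDP mouse 17 was the lowest, and PLDP mouse 22 lay within the control range. The log2 fold change of Npc1 was -0.13 (SE 0.059, adjusted p = 0.559), and -0.061 without PLDP mouse 17. It lost its call without this mouse, without PLDP mouse 26 and without control mouse 2 or 10, and in DESeq2 (unadjusted p = 0.053). Npc2, its soluble partner in the lysosome, had a log2 fold change of -0.021 (adjusted p = 0.954).

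Of the exporters, Abcg1 rose. This ABC transporter, a known target of the liver X receptors that passes cholesterol to lipoproteins (ENSMUSG00000024030, chromosome 17 from 31057675 to 31117988), had 81.2, 79.3 and 77.6 CPM in control mice 2, 5 and 10, against 82.5, 88.2 and 89.7 CPM in PLDP mice 17, 22 and 26. All 3 PLDP mice were above all 3 control mice, with PLDP mouse 17 close to control mouse 2. Its log2 fold change was 0.13 (SE 0.048, adjusted p = 0.448), a change of 9.35%, and it was 0.13 without control mouse 5 as well (unadjusted p = 0.041 in edgeR's test). Its call was lost without control mouse 10 or PLDP mouse 22 or 26. Abca1, the exporter that loads apolipoproteins, and Abcg4, a neuronal and glial exporter, had log2 fold changes of -0.041 and -0.011. Lrp1, an endocytic receptor of apolipoprotein E and the member with the most counts, had 524, 493 and 535 CPM in control mice 2, 5 and 10, against 505, 561 and 540 CPM in PLDP mice 17, 22 and 26. Its diets overlapped and its log2 fold change was 0.049 (SE 0.044). It ranged from 0.012 without PLDP mouse 22 to 0.089 without PLDP mouse 17, where Lrp1 was called (unadjusted p = 0.0222 in edgeR).

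Apoe, the gene of the main lipoprotein of the brain, had only 27, 44 and 34 counts in the control mice and 33, 40 and 38 counts in the PLDP mice. Its neighbor Tomm40 had between 1472 and 1877 counts in the same mice, and Clu, the gene of another astrocyte apolipoprotein, between 12134 and 15642. Apoe is known as an abundant astrocyte transcript, so these counts are not read as its level in the brain. Its log2 fold change of 0.072 had a standard error of 0.23, larger than the difference. Fdps and Tm7sf2 were likewise almost without counts. In GENCODE M21, 1124 exonic bases of Fdps are shared with Gm43738 and 532 of Tm7sf2 with Vps51 on the same strand, while Apoe overlaps no annotated gene. The part of the counting in these low values was not tested.

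In cholesterol turnover, Cyp46a1 rose. This neuronal hydroxylase, which starts the removal of cholesterol from the brain (ENSMUSG00000021259, chromosome 12 from 108334381 to 108362234), had 164.6, 162.1 and 151.9 CPM in control mice 2, 5 and 10, against 177.0, 164.9 and 171.1 CPM in PLDP mice 17, 22 and 26. The diets did not overlap, but PLDP mouse 22 was only just above control mouse 2. The log2 fold change of Cyp46a1 was 0.10 (SE 0.044, adjusted p = 0.547), a change of 7.16%. The call was lost without control mouse 5 or 10 and without PLDP mouse 17 or 26, with log2 fold changes from 0.065 to 0.12 over the 6 fits that left out 1 mouse. Cyp46a1 also lost its call in the exact test of edgeR (unadjusted p = 0.052). Soat1, which esterifies cholesterol for storage, had 33.3, 33.5 and 30.3 CPM in control mice 2, 5 and 10, against 31.6, 33.9 and 36.4 CPM in PLDP mice 17, 22 and 26, a log2 fold change of 0.067 (SE 0.068, adjusted p = 0.834).

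**Figure D3:**
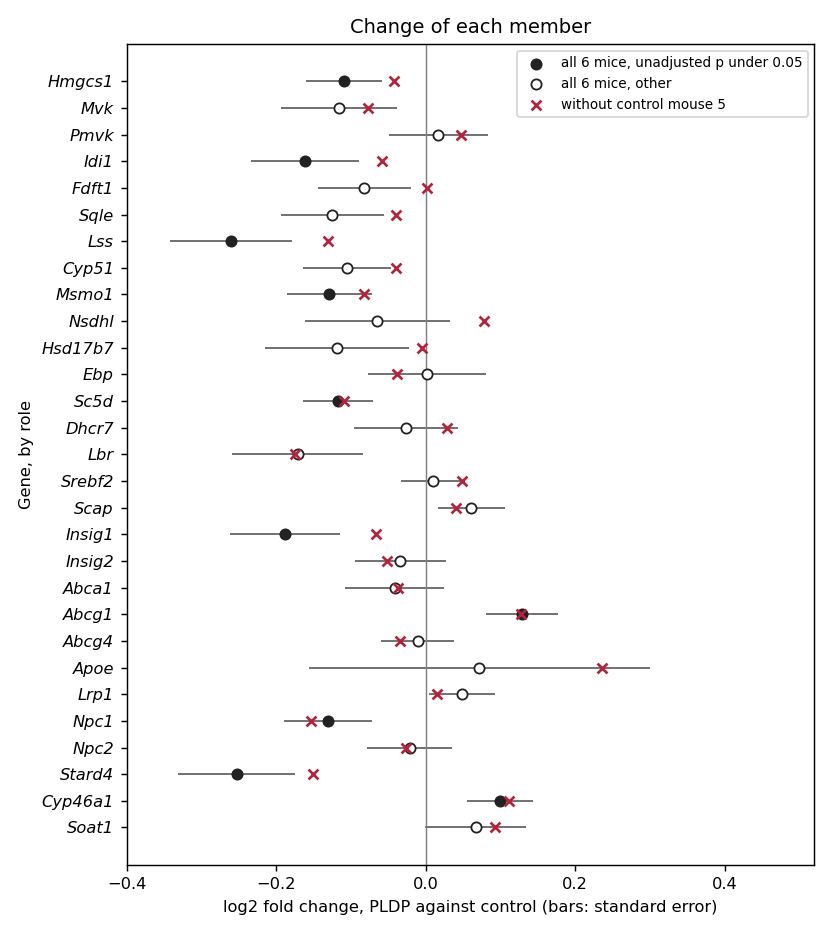
Log2 fold change of each tested member in PLDP mice against control mice, with bars of 1 standard error from edgeR's quasi-likelihood fit on all 6 mice. Filled points have an unadjusted p under 0.05, open points do not, and crosses give the fold change without control mouse 5. The crosses of the enzymes lie closer to 0 than the points for most genes, while those of Sc5d, Lbr, Abcg1, Npc1 and Cyp46a1 stay near them.

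Complete separation of the diets was found for 6 of the 29 tested members. Lss, Sc5d, Lbr and Stard4 were lower in every PLDP mouse than in any control mouse, and Abcg1 and Cyp46a1 were higher. Over all features tested, 14.2% separated the diets, 7.29% with the PLDP mice higher and 6.9% with the PLDP mice lower. The smallest two-sided p that an exact permutation test on 3 and 3 mice can reach is 0.1. The 19 members that were not called had log2 fold changes between -0.17 and 0.072. The standard errors of the tested members other than Apoe were between 0.043 and 0.097 on the log2 scale.

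In the control mice Hmgcs1 had the highest length-scaled level (counts per kilobase of exon, scaled to the same sum in every mouse) at 149 ± 10.7 (SD, with n = 3 per diet). Cyp46a1 was next at 143 ± 4.66, within the spread of Hmgcs1. In the PLDP mice the order was the other way, with Cyp46a1 at 153 ± 3.57 and Hmgcs1 at 138 ± 4.82. Insig1 had 99.6 ± 13.1 in the control mice, followed by Srebf2 at 88.5 ± 3.56 and Lrp1 at 85.9 ± 4.58, which did not differ beyond their spread. At the low end were Lss at 11.2 ± 1.54, Lbr at 9.93 ± 0.893 and Soat1 at 9.71 ± 0.441, while Apoe, whose counts are not read as its level in the brain, was listed at 2.26 ± 0.467.

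**Figure D4:**
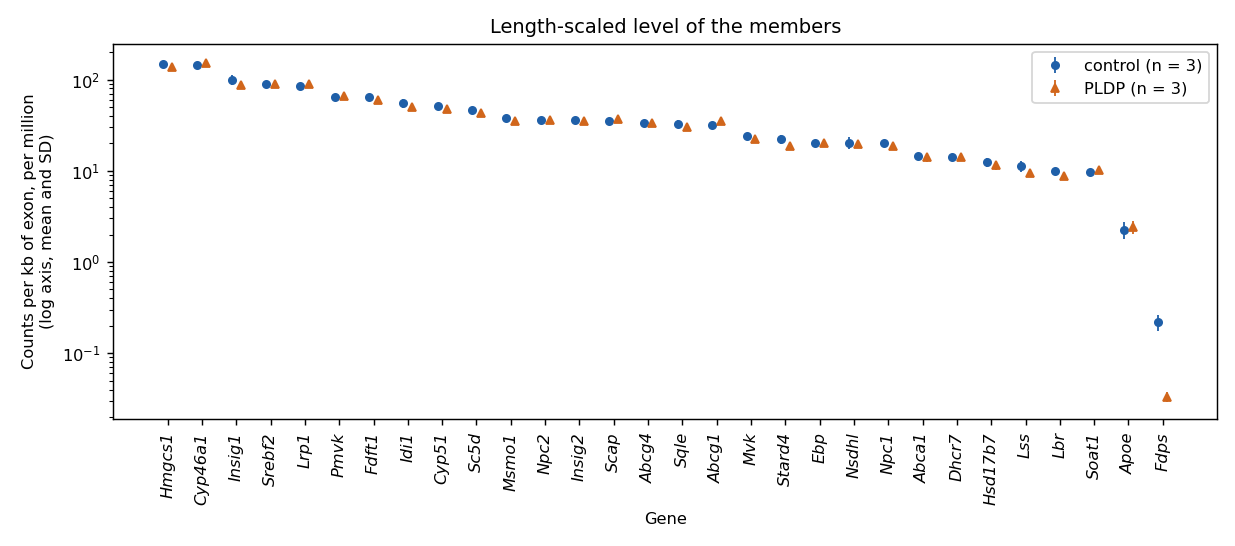
Length-scaled level of the members with counts, in counts per kilobase of exon scaled to the same sum in every mouse, on a log axis and ordered by the control mean. Blue circles are the mean of 3 control mice and orange triangles the mean of 3 PLDP mice, with bars of 1 SD. The diets lie close together on this scale except for Fdps, which rests on 1 to 8 counts per mouse, and Apoe and Fdps are plotted far below the other members.

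A further list of 43 genes of sterol handling was tested beside the members, all of which passed the filter. Of these, 3 rose and 2 fell at the unadjusted threshold, beside 4.91% and 3.69% of all features, and the median log2 fold change was -0.016. Srebf1, the gene of the related factors that act mainly on fatty acid synthesis, had 68.8, 74.0 and 65.7 CPM in control mice 2, 5 and 10, against 59.7, 63.1 and 65.2 CPM in PLDP mice 17, 22 and 26. It was lower in every PLDP mouse, with a log2 difference of -0.15 (SE 0.055, adjusted p = 0.448). Acat2, the cytosolic thiolase at the entry of the pathway, had 50.7, 54.5 and 49.6 CPM in control mice 2, 5 and 10, against 48.0, 46.2 and 44.9 CPM in PLDP mice 17, 22 and 26, a log2 fold change of -0.15 (adjusted p = 0.440). Nr1h3, a liver X receptor gene, rose from 5.24, 5.44 and 4.66 to 6.18, 6.29 and 6.31 CPM, a log2 fold change of 0.29 (adjusted p = 0.515). Pltp, a phospholipid transfer protein of lipoproteins, and Lrp8, an apolipoprotein E receptor, had log2 fold changes of 0.15 and 0.13.

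Libraries had between 18797061 and 23938729 counts, and every pair of mice on the same diet differed by more than counting noise. The defining markers of the brain's cell types were present in every mouse. The summed CPM of 8 oligodendrocyte markers was between 5140 and 5523 in the control mice, highest in mouse 5, and was 5406, 4782 and 4821 in PLDP mice 17, 22 and 26, with Mbp, a major myelin gene, called lower. Of 7 astrocyte markers, 1 was called lower, Aqp4, and their sum was between 3730 and 3818 CPM in the control mice and between 3734 and 3836 CPM in the PLDP mice. The sum of the 5 neuronal markers at hand was 4645 to 4746 CPM and 4648 to 4840 CPM, with 0 called by edgeR's quasi-likelihood test at the unadjusted threshold. All 7 tested markers of hindbrain and spinal cord were lower in the PLDP mice, as the plot of enzymes and markers by mouse shows. Choroid plexus markers summed to 716 to 772 CPM in the control mice and 561 to 712 CPM in the PLDP mice, with 2 of 4 lower. Endothelial markers summed to 110 to 113 CPM and 119 to 125 CPM, with 2 of 4 higher, and oligodendrocyte precursor markers to 75.4 to 79.4 CPM and 81.5 to 86.1 CPM. Microglial markers summed to 212 to 223 CPM and 204 to 214 CPM, with 1 of 6 lower, and hemoglobin and red cell markers to 326 to 585 CPM and 400 to 493 CPM. Liver markers stayed at or under 2.12 CPM in sum. No marker of these lists was at 0 in all mice. The part of cell makeup or of dissection in the differences of the members was not tested.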

How the data were processed

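Whole-brain RNA of 3 control and 3 PLDP mice was sequenced from stranded polyadenylated libraries. The authors deposited 1 file per mouse with raw read counts per gene. The submitters' processing notes name cutadapt 2.9, HISAT2 2.2.0, featureCounts 2.6.0 and DESeq2 1.6.3 and list the builds GRCm38 and GRCh38. The annotation, the strand setting and the treatment of reads shared by genes are not given in the sources used here, so genes that share exons with others, among them Lbr, Fdft1, Npc1 and Scap, are uncertain to that extent. Symbols and positions came from GENCODE M21 (GRCm38), which holds 54777 of the 55034 Ensembl identifiers.

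Features were kept by filterByExpr (10 counts as the minimum per library and 15 in total), scaled by TMM, and fitted in edgeR 4.0.16 (R 4.3.3) by glmQLFit with diet as the only term, tested by glmQLFTest. This left 18580 features. Calls were made at the study's threshold of 0.05, applied to the unadjusted p, and adjusted p-values are Benjamini-Hochberg values over all features. The labels do not pair mice, and each mouse is a separate animal. CPM values use TMM-scaled library sizes. The fits were tested on simulated data. Alternatives were no filter, at least 10 counts in every mouse, other scalings, Ensembl genes only, DESeq2 1.42.0, limma 3.58.1 voom, edgeR's exact test and leaving out each mouse. The count of called enzymes was added as a result after seeing the data. Members and lists were chosen with earlier results of these data known. Full statistics are given for called members and for the 2 with the smallest p in each role group, values in every mouse also for the 10 members with the most counts, and up to 3 genes per direction for the further list. Lbr and the promoters of Lss and Insig1 were chosen for display after their values were seen. Totals of 18797061 to 23938729 counts limit genes of few counts, and the floor of 3 counts covers counting error only. Promoters are from RefSeq (GRCm38.p6). The markers were of neurons, astrocytes, oligodendrocytes and their precursors, microglia, endothelium, blood, choroid plexus, liver, and hindbrain and spinal cord. Some items are not reported here.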

Additional observations from a re-analysis of the deposited data

How the results depend on the processing

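No paired analysis was possible because the mouse numbers are not shared between the diets. Leaving out 1 mouse at a time gave from 2 to 10 called members, 0 to 2 higher and 1 to 10 lower, and from 0 to 8 enzymes called lower, the fewest enzymes without control mouse 5 and the most without control mouse 10. Over all features these fits called 5.95% to 12.5%, the most without PLDP mouse 17, so that 2 of 29 members is near the share over all features. None of the 10 called members kept its call in all 6 of these fits, and Lss and Stard4 lost it only without control mouse 5. The median log2 fold change of the enzymes ranged from -0.15 to -0.040 and that of the members from -0.11 to -0.037 over these fits. With no filter on low counts, 6.54% of 36099 features were called, 8 enzymes among them as lower, Fdps included. In edgeR's quasi-likelihood test without the filter, 3 members (Lss, Stard4 and Insig1) passed an adjusted p of 0.05, with Lss at 0.0181, and the cause was not tested. DESeq2 called 5 members lower and 926 of all features, edgeR's exact test called 1 member higher, and limma voom called 3 enzymes lower. The other settings (at least 10 counts in every mouse, 3 other scalings and Ensembl genes only) kept these counts within 1.5 times. Calls lost under another tool or scaling were those of Hmgcs1 (upper-quartile factors, DESeq2, limma voom and the exact test), Idi1 (limma voom), Insig1 and Npc1 (DESeq2) and Cyp46a1 (the exact test).

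Genes that changed sign when 1 mouse was left out had log2 fold changes from -0.053 to 0.062 (Pmvk), -0.15 to 0.0016 (Fdft1), -0.15 to 0.078 (Nsdhl), -0.039 to 0.033 (Ebp), -0.079 to 0.028 (Dhcr7), -0.027 to 0.049 (Srebf2), -0.076 to 0.025 (Insig2), -0.12 to 0.027 (Abca1), -0.035 to 0.0027 (Abcg4), -0.073 to 0.24 (Apoe) and -0.087 to 0.023 (Npc2). None of them was called with all mice. Calls were gained by Lbr without control mouse 2, by Fdft1, Sqle and Cyp51 without control mouse 10, and by Mvk and Lrp1 without PLDP mouse 17. With no filter, calls were gained by Sqle and Cyp51, and Fdps, not tested with the filter, was called lower. Ebp was at -0.0011 with no filter and at -0.00047 with library size only.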

Other observations

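Fdps, with 5 to 8 counts in the control mice and 1 in each PLDP mouse, had a log2 fold change of -2.61 when no filter was applied. It was called there, with an unadjusted p of 0.00233 and an adjusted p of 0.211 in edgeR's quasi-likelihood test. This call rests on 20 and 3 counts in all. Fdps was singled out after its values were seen. How reads at this gene were assigned was not tested.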
